A study of Mus musculus with 26 samples.

Results

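The 9 genes described here encode chemokine receptors of leukocytes: Ccr2, Ccr6, Ccr7, Ccr9, Cxcr3, Cxcr4, Cxcr5, Cxcr6 and Cx3cr1. They were taken as a named list, by mouse symbol paired with Ensembl identifier, from the 55416 genes of the deposited count tables. All 9 were found, and all 9 passed the filter on low counts in every comparison below. The RNA came from C57BL/6 mice whose lungs carried metastases of B16F10, a mouse melanoma line given into a vein. Mice were left untreated or received propranolol, which blocks β-adrenoceptors, and every group carried the tumour. Whole lung was sequenced in 5 untreated and 5 treated libraries, lung monocytes isolated by flow sorting in 4 and 4, and CD4 T cells taken with magnetic beads in 4 and 4. No dose, duration or age is given in the sources used here, and the titles of the treated CD4 T cell libraries write "propanol" where their treatment field has propranolol.

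Chemokine receptors are membrane proteins that couple to inhibitory G proteins and steer leukocytes along gradients of small secreted proteins, the chemokines. Ccr2 and Cx3cr1 guide and maintain monocytes and also act on some lymphocytes. Ccr7 brings naive T cells and maturing dendritic cells into lymph nodes, Cxcr5 brings B cells and follicular helper T cells into follicles, and Ccr6 answers the epithelial chemokine Ccl20. Cxcr4 answers Cxcl12 and holds many blood cell types in their niches. Cxcr3, Cxcr6 and Ccr9 direct activated, tissue-resident and gut-homing or thymic T cells.

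Total counts per library ran from 17625672 to 48306925. Whether the replicates are separate animals is left unsaid in the labels. Each p-value below sets a group difference against the spread between libraries, and this spread may therefore be technical. The libraries labelled monocytes held monocyte transcripts (summed classical monocyte list, 10 genes, 3181 to 4097 CPM untreated and 3275 to 3909 treated, where CPM is the count scaled to a library total of 1000000). They also held an endothelial list of 14 genes at 8421 to 8569 CPM untreated and 6511 to 6556 treated. A melanocyte list of 12 genes was at 3845 to 4567 and 4827 to 6977. Alveolar type 2 and airway epithelium lists were at 4848 to 5168 and 4248 to 5981 CPM in the untreated ones. In untreated whole lung the classical monocyte list summed to 839 to 2081 CPM and the endothelial list to 2158 to 3670. The alveolar type 2 and airway lists were at 7910 to 13788 and 2467 to 9037 CPM in those lungs. Values given below for monocytes and for CD4 T cells are those of whole libraries with these labels, not of the named cells alone. The libraries labelled CD4 T cells held Cd4 at 645 CPM and Cd3e at 290 CPM untreated, with Cd8a at 4.56 CPM. In those libraries the plasma cell heavy chain Igha stood at 6706 CPM. The melanocyte list of 12 genes summed to 16.4 to 18.8 CPM untreated and 6.67 to 9.16 treated there. Its members Tyrp1, Dct and Tyr were at 0 in every CD4 T cell library. In bulk RNA, fewer cells of a type and less RNA per cell cannot be told apart.

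Ccr9, Cxcr6 and Ccr2, near neighbours on chromosome 9, and Cxcr4 on chromosome 1 are shown by the 250 bases before their start site, because the neighbours differed in their levels and changes and Cxcr4 differed between kinds of material. In the RefSeq order of protein-coding genes, Ccr9, Fyco1, Cxcr6, Xcr1, Ccr1, Ccr1l1, Ccr3 and Ccr2 follow each other. The sequences are RefSeq, build GRCm38.p6, an older build than the GRCm39 of the counts, 5′ to 3′ on the gene's own strand: chr9:123766961-123767210 (+) for Ccr9, chr9:123806227-123806476 (+) for Cxcr6, chr9:124101933-124102182 (+) for Ccr2 and chr1:128592300-128592549 (-) for Cxcr4. Capitals mark matches to the motifs searched.
Ccr9: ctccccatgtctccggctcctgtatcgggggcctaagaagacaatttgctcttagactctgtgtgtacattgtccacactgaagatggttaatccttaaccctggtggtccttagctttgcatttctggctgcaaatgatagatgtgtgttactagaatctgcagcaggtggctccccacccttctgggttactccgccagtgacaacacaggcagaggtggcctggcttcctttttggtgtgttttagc
Cxcr6: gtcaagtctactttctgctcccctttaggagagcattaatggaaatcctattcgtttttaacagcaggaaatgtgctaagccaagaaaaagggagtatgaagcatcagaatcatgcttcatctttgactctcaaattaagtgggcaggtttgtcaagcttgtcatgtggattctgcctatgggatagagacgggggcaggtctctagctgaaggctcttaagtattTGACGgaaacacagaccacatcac
Ccr2: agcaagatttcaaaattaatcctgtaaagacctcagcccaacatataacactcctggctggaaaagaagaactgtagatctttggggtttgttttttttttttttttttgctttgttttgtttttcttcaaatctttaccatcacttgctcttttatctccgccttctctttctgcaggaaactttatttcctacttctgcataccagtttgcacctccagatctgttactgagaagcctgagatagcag
Cxcr4: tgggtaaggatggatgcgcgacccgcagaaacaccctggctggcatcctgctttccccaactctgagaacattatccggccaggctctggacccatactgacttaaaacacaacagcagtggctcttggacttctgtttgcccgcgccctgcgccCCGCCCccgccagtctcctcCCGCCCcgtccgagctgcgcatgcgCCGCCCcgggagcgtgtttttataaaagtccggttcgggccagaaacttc
Promoters were matched for 7 of the 9 receptors (8 promoters, since Ccr6 has 2 start sites). Both strands were searched for the cAMP response element TGACGTCA and its core TGACG, AP-1 TGANTCA, NBRE AAAGGTCA, an NF-kB consensus, the GC box GGGCGG, the ETS core CCGGAA and the E box CACGTG. Counted from the start site, the TGACG core stood at −24 in Cxcr6 and at −207 before 1 of the Ccr6 starts, and 17.8% of all 32851 promoters hold it. Cxcr4 held 3 GC boxes, at −95, −75 and −50, a motif found in 32.7% of promoters. None of the other motifs searched occurred in the 8 windows. They occur in 1.55% (TGACGTCA, which contains the core), 6.75% (AP-1), 1.34% (NBRE), 0.356% (NF-kB), 12% (ETS) and 6.02% (E box) of all promoters.

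Untreated libraries show which material carried each receptor. Per kilobase of merged exon (GENCODE lengths on GRCm38), Ccr7 and Cxcr4 were the most abundant receptor transcripts in the libraries labelled CD4 T cells, at 116 ± 2.17 and 109 ± 4.20 CPM per kb (SD, n = 4). Cxcr3 followed at 50.03 ± 1.03, Cxcr6 at 26.3 ± 1.63 and Cxcr5 at 22.2 ± 0.536 CPM per kb. In the libraries labelled monocytes, Cxcr4 stood at 94.9 ± 2.95 and Ccr7 at 43.7 ± 1.72 CPM per kb, above Cx3cr1 at 15.6 ± 3.06 and Ccr2 at 13.9 ± 1.34. Cx3cr1 and Ccr2 lay within each other's spread there. In whole lung Cxcr4 led at 29.5 ± 17.4 CPM per kb (SD, n = 5), and Ccr7 at 5.18 ± 1.07, Cxcr3 at 3.55 ± 0.937, Cx3cr1 at 2.92 ± 1.26 and Ccr2 at 2.84 ± 0.599 followed, the last 3 within their spread.

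The 2 receptors known from monocytes stood highest in the libraries of that label. Ccr2 (ENSMUSG00000049103) was at 94.1 ± 9.06 CPM in them, 70.1 ± 6.59 in CD4 T cells and 19.2 ± 4.05 in whole lung. Cx3cr1 (ENSMUSG00000052336), the receptor of fractalkine, was at 70.4 ± 13.8, 17.4 ± 2.87 and 13.1 ± 5.69 CPM. Ccr2 differed at each step of this order, with log2 differences of −0.76 ± 0.08 (SE) between CD4 T cells and monocytes and 1.77 ± 0.14 between CD4 T cells and lung (adjusted p = 2.13e-06 and 2.07e-07). Cx3cr1 was lower in CD4 T cells than in monocytes (−2.34 ± 0.14, adjusted p = 1.03e-08), and CD4 T cells and lung were not told apart (0.31 ± 0.26, adjusted p = 0.276). Without lung library 3 of the untreated group, the highest for Cx3cr1, that difference was 0.59 with adjusted p = 0.01.

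The lymphoid homing receptors Ccr7, Cxcr5 and Ccr6 were highest in the libraries labelled CD4 T cells. Those untreated libraries held the B cell list at 9809 to 11264 CPM, mostly Ighm, and the T cell list at 3970 to 4110 CPM. Against lung, 11 of 12 B cell genes were higher and 0 lower there (39.9% and 44% of all genes). The part of B cells in these levels was not tested. Ccr7 (ENSMUSG00000037944) was at 228 ± 4.29 CPM there, 86.4 ± 3.39 in monocytes and 10.2 ± 2.11 in lung. Cxcr5 (ENSMUSG00000047880) was at 74.1 ± 1.79, 13.5 ± 2.27 and 3.03 ± 0.689 CPM, and Ccr6 (ENSMUSG00000040899) at 9.83 ± 1.99, 2.18 ± 0.696 and 0.637 ± 0.295 CPM. Each of these 3 differed between all pairs of materials, the smallest difference being Ccr7 between CD4 T cells and monocytes (1.06 ± 0.04, adjusted p = 1.65e-10). Cxcr4 (ENSMUSG00000045382) was closer, with 198 ± 7.59 CPM in CD4 T cells, 172 ± 5.33 in monocytes and 53.3 ± 31.5 in lung. On the TMM scale used for the tests, Cxcr4 was slightly lower in CD4 T cells than in monocytes (−0.14 ± 0.04, adjusted p = 0.00757), opposite to the plain CPM. With only genes of at least 5 CPM that difference was −0.07 with adjusted p = 0.134, so the order of these materials for Cxcr4 is not settled by these libraries.

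Of the effector and tissue receptors, Cxcr3 and Cxcr6 set CD4 T cells widely apart from monocytes, and Ccr9 did not. Cxcr3 (ENSMUSG00000050232) stood at 86.6 ± 1.78 CPM in CD4 T cells, 6.14 ± 1.62 in lung and 1.34 ± 0.422 in monocytes, a log2 difference of 5.65 ± 0.15 between CD4 T cells and monocytes (adjusted p = 7.69e-13). Cxcr6 (ENSMUSG00000048521), the receptor of Cxcl16, stood at 50.9 ± 3.14, 1.42 ± 0.608 and 0.94 ± 0.23 CPM. Monocytes were below lung for Cxcr3 (−2.02 ± 0.25, adjusted p = 4.57e-05) and not told apart from it for Cxcr6 (−0.42 ± 0.33, adjusted p = 0.279). Ccr9 (ENSMUSG00000029530) was at 24.2 ± 16.1 CPM in monocytes, 20.4 ± 1.36 in CD4 T cells and 1.87 ± 1.35 in lung. CD4 T cells and monocytes were not told apart for Ccr9 (−0.59 ± 0.42, adjusted p = 0.201), a comparison that gave −0.93 with adjusted p = 0.00216 without untreated monocyte library 1 and −0.65 with adjusted p = 0.0221 without the filter. Against lung, 7 of 9 receptors were higher and 1 lower in monocytes (31.9% and 33.6% of all genes tested), and 8 of 9 were higher and none lower in CD4 T cells (39.9% and 44%), with no unadjusted p below 0.05 downward by edgeR and 0 lower by DESeq2. CD4 T cells against monocytes had 5 higher and 3 lower (40.8% and 44.2%). The CD4 T cell libraries are in a separate deposited table, so the kind of material and any batch between the tables cannot be told apart in comparisons with them.

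**Figure D1:**
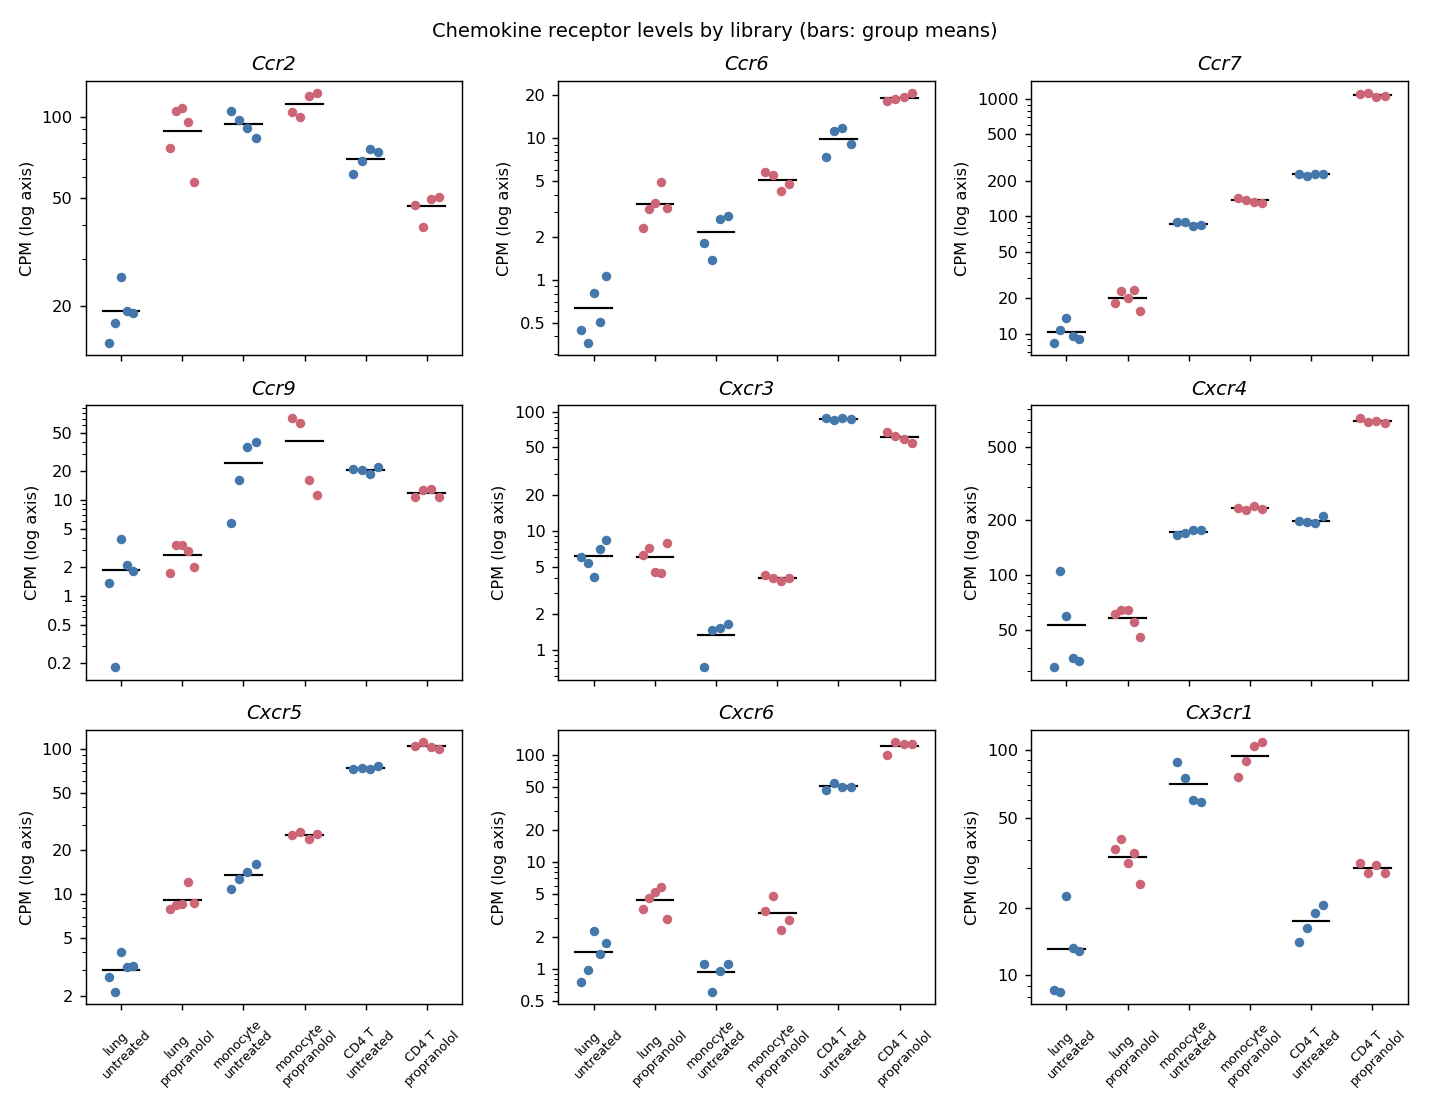
Level of each receptor in each of the 26 libraries, as plain CPM on a log axis with a separate scale for each gene. Points are libraries (blue untreated, red propranolol) and bars are group means. Ccr2 and Cx3cr1 are highest in the libraries labelled monocytes, Ccr7, Cxcr3, Cxcr4, Cxcr5, Cxcr6 and Ccr6 are highest in CD4 T cells, and Ccr9 spreads from 5.69 to 71.3 CPM among the monocyte libraries.

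In whole lung, 6 of the 9 receptors rose with propranolol and none fell by edgeR on TMM scaling, but 4 rose and 2 fell when libraries were scaled on pan-leukocyte markers. Ccr6 and Ccr2 rose most, about 4.70- and 4.08-fold. Ccr6, Cxcr6, Cxcr5, Ccr2, Cx3cr1 and Ccr7 were the 6 that rose, and Cxcr3, Cxcr4 and Ccr9 were not called. Among all 18639 genes tested 70.8% were called, 35.5% higher and 35.3% lower, so a call by itself says little about these genes. The median log2 change of the 9 was 1.18, against 0.026 for all genes and 1.07 for 18 pan-leukocyte markers, of which 17 rose and 1 fell. None of the 9 had an unadjusted p below 0.05 in the downward direction, and the DESeq2 test also called 6 higher and 0 lower. Per-library values below are TMM-scaled CPM in library order.

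The monocyte receptor Ccr2 stood at 16.2, 18.8, 26.5, 20.3 and 20.1 scaled CPM in the untreated lungs and at 72.1, 98.9, 101, 90.7 and 52.9 in the treated ones. Every treated lung was above every untreated lung, and treated library 5 was the lowest of its group. The log2 change was 2.03 ± 0.18 (SE, adjusted p = 5.24e-05). Cx3cr1 stood at 9.55, 9.19, 23.3, 14.0 and 13.5 untreated and 34.2, 37.7, 29.4, 33.0 and 23.4 treated. Untreated library 3 and treated library 5 nearly met and the groups did not overlap. The log2 change was 1.18 ± 0.24 (adjusted p = 0.00128). Groups did not overlap for the 6 receptors called, against 23.6% of all genes higher in this way. The classical monocyte list summed to 839 to 2081 CPM in untreated and 1304 to 1442 in treated lungs, with 5 of 10 genes higher and 0 lower, while the non-classical list had 9 of 10 higher and 1 lower. Their part in the Ccr2 and Cx3cr1 values was not tested.

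Of the lymphoid homing receptors, Ccr6 stood at 0.488, 0.391, 0.837, 0.532 and 1.13 scaled CPM untreated and 2.17, 2.97, 3.28, 4.65 and 2.95 treated. These are low levels, from 12 to 47 counts untreated and 70 to 212 treated, and no treated lung reached down to the untreated range. The log2 change was 2.23 ± 0.31 (adjusted p = 0.000185). Cxcr5 stood at 2.95, 2.31, 4.13, 3.32 and 3.37 untreated and 7.42, 7.88, 7.997, 11.5 and 8.02 treated. Treated library 4 stood apart above 4 close libraries, and the change was 1.41 ± 0.18 (adjusted p = 0.000131). Ccr7 stood at 9.21, 11.5, 14.2, 10.04 and 9.53 untreated and 17.1, 21.5, 18.8, 22.4 and 14.3 treated. Its highest untreated and lowest treated libraries lay side by side, and the change was 0.79 ± 0.15 (adjusted p = 0.00103). The B cell list, cells that carry Cxcr5, Ccr6 and Ccr7, summed to 80.8 to 176 CPM untreated and 423 to 625 CPM treated, with 12 of 12 genes higher and a median log2 change of 1.95. Its part in these values was not tested.

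Cxcr4 behaved unevenly among untreated lungs. It stood at 34.8, 114, 61.9, 37.1 and 36.01 scaled CPM untreated and 58.2, 60.9, 60.5, 52.8 and 42.4 treated. Untreated libraries 2 and 3 were higher than every treated lung, and the other 3 untreated lungs were below all treated ones. The log2 change was −0.05 ± 0.31 (adjusted p = 0.898) and was 0.36 (adjusted p = 0.108) without untreated library 2. That library also had the lowest Ccr9 (6 counts) and the highest summed fibroblast (6296 CPM, others 2618 to 3709) and classical monocyte lists of its group.

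Among the effector and tissue receptors, Cxcr6 stood at 0.832, 1.04, 2.35, 1.46 and 1.83 scaled CPM untreated and 3.42, 4.30, 4.89, 5.56 and 2.69 treated. The groups did not overlap and the log2 change was 1.47 ± 0.29 (adjusted p = 0.00125). Cxcr3 stood at 6.60, 5.80, 4.19, 7.33 and 8.83 untreated and 5.87, 6.77, 4.25, 4.17 and 7.29 treated. The groups overlapped almost wholly (−0.21 ± 0.22, 95% interval −0.70 to 0.28, adjusted p = 0.406). The T cell list rose over the same libraries in 12 of 12 genes, with a median of 1.32 and sums of 35.5 to 63.7 CPM untreated and 92.1 to 144 treated. The change of Cxcr3 thus lay below that of the T cell list, though that difference was not tested. Ccr9 stood between 0.195 and 4.03 untreated and between 1.61 and 3.20 treated, overlapping groups with a change of 0.35 ± 0.51 (95% interval −0.77 to 1.46, adjusted p = 0.548).

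The lung values depended on how libraries were scaled. Over the same libraries the melanocyte list fell in 12 of 12 genes (median −2.05), with sums of 14410 to 21406 CPM untreated and 998 to 9260 treated. These ranges do not overlap, so the covariate fit given below cannot tell melanocyte level and treatment apart. The part of the melanocyte list in the receptor values was not tested. Scaling on the pan-leukocyte list moved the median of all genes to −0.75, and the calls of all genes to 1551 higher and 11305 lower (from 6614 and 6575). Relative to leukocyte transcripts, Ccr2 (1.25), Ccr6 (1.47), Cxcr5 (0.65) and Cxcr6 (0.71) remained higher, Ccr7 (0.02) and Cx3cr1 (0.43, adjusted p = 0.0554) were not called, and Cxcr3 (−0.99, adjusted p = 0.00482) and Cxcr4 (−0.80, adjusted p = 0.0155) were lower. Scaling on resident lung cell markers moved the median of all genes to −0.73, and calls to 1805 higher and 10966 lower. It gave 5 receptors higher, with Cx3cr1 at 0.48 among them, and the same 2 lower. Library totals alone moved the median to 0.21 (8261 higher, 4779 lower) and called the same number of receptors, 6 higher. With the melanocyte level of each lung as a covariate, Ccr2 (1.45), Ccr6 (1.60) and Cxcr5 (1.02) were called, among 2754 of 18639 genes (1245 higher and 1509 lower).

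**Figure D2:**
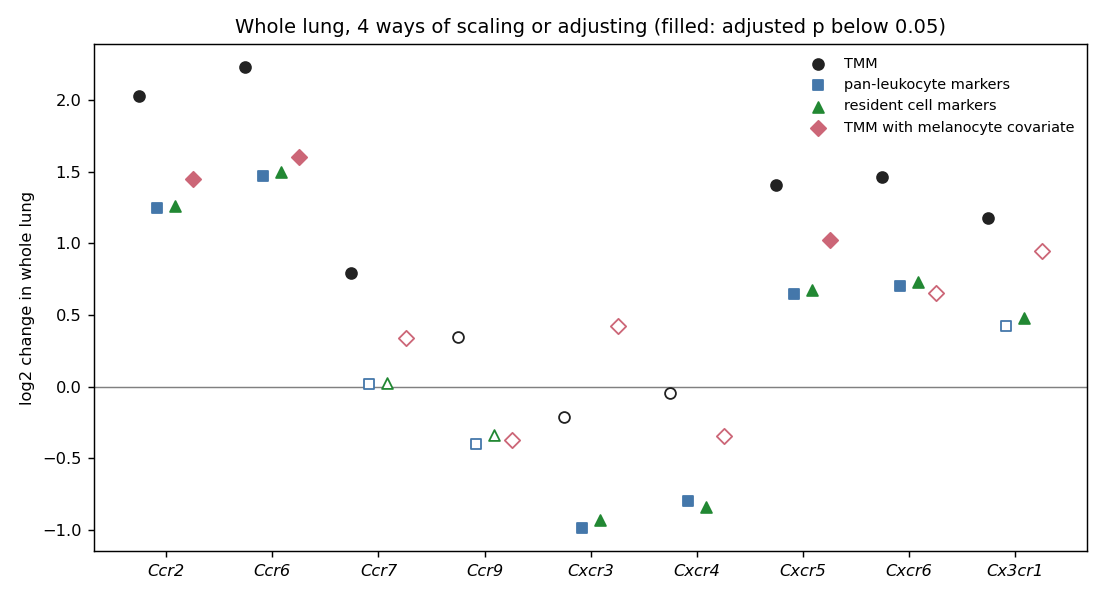
Log2 change of each receptor in whole lung under TMM, under scaling on pan-leukocyte or resident cell markers, and under TMM with a melanocyte covariate (y axis, propranolol over untreated). Filled symbols passed an adjusted p of 0.05. Melanocyte list sums do not overlap between the groups, so the covariate fit cannot tell melanocyte level and treatment apart. Ccr2, Ccr6 and Cxcr5 are filled above 0 in all 4, while Cxcr3 and Cxcr4 are filled below 0 under both marker scalings and open under the others, where Cxcr3 changes sign.

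In the libraries labelled monocytes, 6 of the 9 receptors rose with propranolol and none fell: Cxcr6, Cxcr3, Ccr6, Cxcr5, Ccr7 and Cxcr4, a set in which Cxcr4 lost its call under pan-leukocyte scaling. The 2 receptors that mark monocytes, Ccr2 and Cx3cr1, were not called, and neither was Ccr9. Of 18236 genes tested 30.5% were called, 14.3% higher and 16.1% lower. The receptors' median log2 change was 0.69, against 0.023 for all genes and 0.40 for the 18 pan-leukocyte markers, of which 17 rose. None of the 9 had an unadjusted p below 0.05 downward, and the DESeq2 test called 6 higher and 0 lower.

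Ccr2 stood at 109, 99.7, 91.7 and 82.9 scaled CPM untreated and 102, 97.3, 118 and 121 treated. The groups overlapped, and the change was 0.19 ± 0.09 (95% interval −0.01 to 0.40, adjusted p = 0.136). Cx3cr1 stood at 91.5, 76.8, 60.4 and 58.6 untreated and 73.9, 86.8, 103 and 107 treated. Only treated libraries 3 and 4 were above every untreated library, and the change was 0.37 ± 0.15 (adjusted p = 0.0869). Without untreated library 1 it was 0.50 (adjusted p = 0.022), and without treated library 1 it was 0.46 (adjusted p = 0.0366). With the immature thymocyte level (below) as a covariate, Ccr2 was at 0.26 and Cx3cr1 at 0.49, both called (adjusted p = 1.07e-05 and 8.91e-08), in a fit that called 7734 of 18236 genes.

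The lymphoid homing receptors also rose, with the least spread between libraries for Cxcr4 and Ccr7 and the most for Ccr6. Ccr7 stood at 92.6, 92.0, 83.5 and 83.4 scaled CPM untreated and 141, 136, 132 and 130 treated. Every treated library was well above every untreated one, and the log2 change was 0.61 ± 0.05 (adjusted p = 5.61e-06). Cxcr5 stood at 11.3, 13.03, 14.3 and 16.1 untreated and 24.8, 26.1, 23.6 and 25.6 treated, a change of 0.86 ± 0.10 (adjusted p = 7.27e-05). Ccr6 stood at 1.89, 1.42, 2.704 and 2.82 untreated and 5.61, 5.37, 4.23 and 4.73 treated. Its groups lay apart at 59 to 137 against 198 to 240 counts, and the change was 1.17 ± 0.21 (adjusted p = 0.0016). Cxcr4 stood at 171, 175, 177 and 175 untreated and 226, 221, 235 and 229 treated. Both groups were tight and apart, so a small change of 0.38 ± 0.03 was called (adjusted p = 1.29e-05). The groups did not overlap for each of the 6 receptors called, against 14.9% of all genes higher in this way.

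The effector receptors rose from very low levels. Cxcr3 stood at 0.743, 1.496, 1.52 and 1.65 scaled CPM untreated and 4.11, 3.92, 3.76 and 3.999 treated. Cxcr6 stood at 1.14, 0.627, 0.959 and 1.09 untreated and 3.38, 4.63, 2.26 and 2.84 treated. All treated libraries were above all untreated ones for both, with changes of 1.53 ± 0.21 and 1.78 ± 0.26 (adjusted p = 0.000297 and 0.000464). They rested on 26 to 80 counts of Cxcr3 untreated and 153 to 180 treated. Lymphocyte markers moved over the same libraries. The NK cell list rose in 10 of 10 genes (sums of 29.0 to 34.9 CPM untreated and 94.0 to 137 treated, median 1.99) and the B cell list in 12 of 12 (360 to 639 and 917 to 1049 CPM, median 1.06), while the T cell list, with 1 of 12 genes called, ran from 90.4 to 450 and from 218 to 893 CPM. Over the 8 libraries of both treatment groups, the log2 level of Cxcr3 had Pearson r = 0.96 with the NK cell sum and 0.97 with the B cell sum. Ccr7 had 0.98 and 0.87, Cxcr5 0.96 and 0.99, and Ccr2 0.58 and 0.39. A gene and a list that both rise with treatment give a high r here, so r cannot tell a shared cell type from a shared treatment. These values describe 8 libraries that share their treatment groups and depth. The part of NK or B cells in the receptor changes was not tested.

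The smaller changes depended on scaling. On pan-leukocyte markers the median of all genes was −0.35 (437 higher and 10791 lower, from 2614 and 2939), Cxcr4 stood at 0.01 (adjusted p = 0.775), and Ccr2 turned to −0.18 without a call. Library totals alone gave 3641 higher and 2424 lower genes and 8 receptors higher. Libraries 1 and 2 of each group were closest to each other, as were 3 and 4. With these pairs summed, leaving 2 against 2, 5 receptors were called, among 1377 of 20638 genes, and Ccr6 was at 1.16 with adjusted p = 0.0647.

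Ccr9 varied more between monocyte libraries than between treatments. It stood at 5.91, 16.4, 35.7 and 39.6 scaled CPM untreated and 69.4, 62.1, 16.0 and 11.1 treated. Untreated libraries 3 and 4 and treated libraries 1 and 2 were high, in both groups a pair of close libraries, and the groups overlapped (0.69 ± 0.63, 95% interval −0.71 to 2.09, adjusted p = 0.447). Genes of immature thymocytes, a list chosen after the data had been seen (Rag1, Rag2, Dntt, Ptcra and Arpp21), had the same order of libraries in plain CPM. They summed to 47.2, 134, 330 and 410 CPM untreated and 729, 603, 144 and 85.3 treated, in the main Rag1 and Dntt, the recombinase and the nucleotide adding enzyme of antigen receptor rearrangement. Pearson r between the log2 levels was 0.999 over the 8 libraries. It was 0.97 with the T cell sum and −0.92 with the classical monocyte sum, given as a description since the 8 libraries include close pairs. The sum of Cd8a and Cd8b1 had the same order of libraries too, so this order was not particular to the thymocyte list. With the thymocyte level as a covariate the Ccr9 change was 0.02 (adjusted p = 0.84), and with the T cell level it was −0.69 (adjusted p = 7.2e-07). In whole lung the same list was at 0.421 to 14.8 CPM, highest in untreated library 3, which also had the highest Ccr9. Between the lung groups the means ran in opposite directions, with the list at 4.64 CPM untreated and 1.11 treated and Ccr9 at 1.87 and 2.68 CPM. In CD4 T cells, where Ccr9 stood at 20.4 CPM untreated, it was at 3.34 to 7.51 CPM. In the GENCODE annotation 21.5% of Ccr9 exon bases lie inside other genes, Slc6a20a and AC165425.1 on the opposite strand and Gm17200 on the same strand. Of its 75-base stretches, 19.3% also occur in AC165425.1 or Gm17200. The sources used here do not give the strand setting of the counting.

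**Figure D3:**
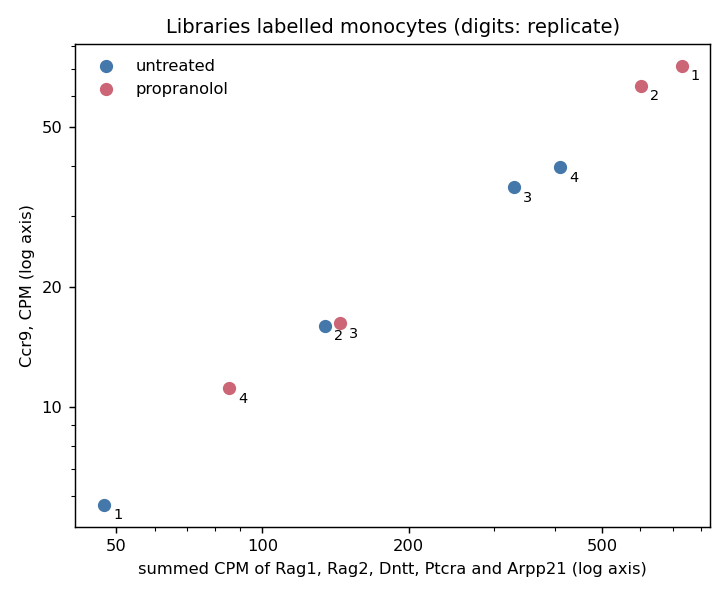
Ccr9 (y axis, plain CPM) against the summed plain CPM of 5 immature thymocyte genes (x axis) in the 8 libraries labelled monocytes, both on log axes. Blue points are untreated, red points propranolol, and digits give the replicate. The points lie along a line that both groups share, from untreated library 1 at 5.69 CPM to treated library 1 at 71.3 CPM.

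In the libraries labelled CD4 T cells, Ccr7 and Cxcr4 rose 6.20- and 4.56-fold with propranolol, and Cxcr6, Ccr6, Cx3cr1 and Cxcr5 also rose. Ccr9 fell, and Ccr2 and Cxcr3 were not called under TMM but were lower under library totals and pan-leukocyte scaling. Of 16550 genes tested 60% were called, 30.1% higher and 29.9% lower. The receptors' median log2 change was 1.15, against −0.038 for all genes and 0.035 for the pan-leukocyte markers, of which 7 rose and 7 fell. Among the 9, Ccr7 and Cxcr4 also had the highest levels per length in treated CD4 T cells, at 548 ± 19.3 and 381 ± 10.8 CPM per kb (SD, n = 4).

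Ccr7 stood at 202, 194, 202 and 200 scaled CPM untreated and 1271, 1289, 1196 and 1199 treated. Cxcr4 stood at 172, 169, 168 and 183 untreated and 817, 786, 788 and 762 treated. In both, replicates varied by a small share of their mean and the groups lay far apart, with changes of 2.63 ± 0.05 and 2.19 ± 0.05 (adjusted p = 1.52e-11 and 5.31e-11). Cxcr5 stood at 63.3, 64.8, 64.0 and 67.0 untreated and 120, 128, 117 and 113 treated, a change of 0.88 ± 0.06 (adjusted p = 1.68e-07). Ccr6 stood at 6.44, 9.76, 10.2 and 7.96 untreated and 20.7, 21.7, 22.1 and 23.4 treated. Untreated libraries varied for Ccr6 and treated ones hardly did, and the change was 1.34 ± 0.14 (adjusted p = 6.94e-06). The B cell list rose in 12 of 12 genes over these libraries (median 1.77). Its sum, 9809 to 11264 CPM untreated and 9749 to 11035 treated, was mostly Ighm. Its part in the Cxcr5, Ccr6 and Ccr7 values was not tested.

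Cxcr6 stood at 41.5, 48.1, 44.0 and 44.4 scaled CPM untreated and 115, 151, 145 and 144 treated. Treated library 1 was below the other 3 and still far above every untreated library, and the change was 1.64 ± 0.09 (adjusted p = 2.98e-08). Cx3cr1, found on some effector T cells, stood at 12.3, 14.2, 16.5 and 18.1 untreated and 35.8, 32.7, 35.4 and 32.4 treated, a change of 1.15 ± 0.12 (adjusted p = 5.92e-06). Myeloid markers moved over the same libraries. The classical monocyte list had 8 of 10 genes higher and 1 lower (median 1.25), with sums of 791 to 850 CPM untreated and 783 to 828.5 treated. The non-classical list, which holds the early response gene Nr4a1 (91.2 to 97.9 and 2867 to 3519 CPM), had 6 of 10 higher and 0 lower (median 0.61, 1592 to 1710 and 3983 to 4754 CPM), and the neutrophil list 8 of 8 higher (median 2.12, 141 to 189 and 473 to 728 CPM). Csf1r, the growth factor receptor of monocytes and macrophages, was at 43.7 and 92.3 CPM. The part of myeloid cells in the Cx3cr1 value was not tested. Cxcr3 stood at 77.2, 73.6, 76.7 and 75.5 untreated and 77.5, 71.5, 66.7 and 61.5 treated. Treated library 1 was slightly above and the other 3 were below every untreated library, and the change was −0.13 ± 0.08 (95% interval −0.29 to 0.04, adjusted p = 0.163), or −0.19 (adjusted p = 0.022) without treated library 1. Ccr2 stood at 53.6, 60.0, 66.8 and 65.0 untreated and 53.8, 45.3, 57.0 and 57.4 treated. The groups overlapped (−0.20 ± 0.10, adjusted p = 0.0881), and without untreated library 1 the change was −0.26 (adjusted p = 0.0423). Ccr9 stood at 18.3, 17.9, 16.2 and 19.0 untreated and 12.3, 14.8, 14.7 and 12.0 treated. All treated libraries were below all untreated ones and the change was −0.41 ± 0.11 (adjusted p = 0.00651). All 7 receptors called had groups that did not overlap, which 27.9% of all genes did upward and 28.5% downward.

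TMM factors differed between the groups here, at 1.14 to 1.15 untreated and 0.868 to 0.88 treated. Without them, on library totals, the median of all genes was −0.42 (2890 higher, 8056 lower, from 4982 and 4947), and Ccr2 (−0.59, adjusted p = 0.000236) and Cxcr3 (−0.52, adjusted p = 8.91e-05) were lower beside Ccr9. Relative to that median both lie close to the average gene. Pan-leukocyte scaling (median −0.47, 2644 higher, 8442 lower) gave the same 6 receptors higher and 3 lower. The 6 that rose did so under each scaling run. Over the same libraries, 10 immediate early and cAMP response genes, a list chosen after the data had been seen, all rose (median 4.95). They summed to 537 to 576 CPM untreated and 12034 to 15136 treated, so that treated CD4 T cells differed from untreated ones in these genes as well. In the libraries labelled monocytes they summed to 5360 to 5800 CPM untreated and 5577 to 5888 treated (median log2 change 0.018). In lung they were at 582.5 to 691.7 and 445.7 to 562.9 CPM (median −0.424). The part of these genes in the receptor values was not tested.

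**Figure D4:**
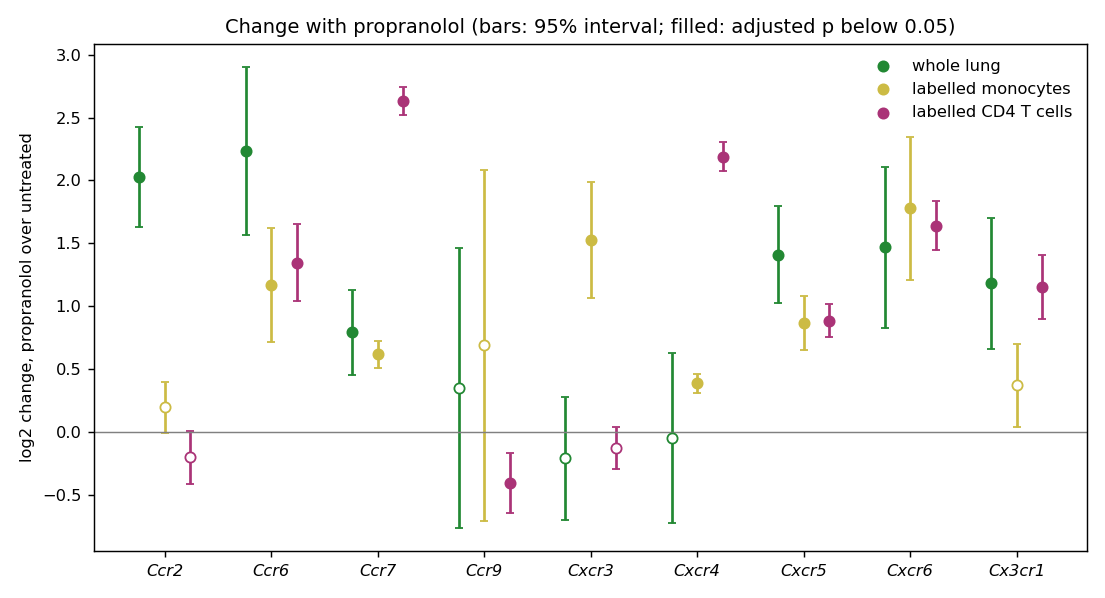
Log2 change with propranolol (y axis, TMM scaling) of each receptor in whole lung, libraries labelled monocytes and libraries labelled CD4 T cells, with 95% intervals. Filled points passed an adjusted p of 0.05. Ccr2 is far above 0 in lung (2.03) and near 0 in the other 2 materials, Ccr7 (2.63) and Cxcr4 (2.19) are highest in CD4 T cells, and Cxcr3 is filled in monocytes only. Under pan-leukocyte scaling Cxcr3 and Cxcr4 were lower in lung.

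Whether a receptor's change differed between kinds of material was tested as a difference of log2 changes in 1 fit per pair of materials. Of 27 such differences 15 passed the threshold, and comparisons that involve lung share the same lung libraries. Backgrounds were 57.4% of genes for monocytes minus lung, 56.2% for CD4 T cells minus lung and 47.7% for CD4 T cells minus monocytes. The median difference of all genes was −0.17, −0.26 and −0.076 in this order. For the 18 pan-leukocyte markers it was −0.75 (16 lower, 1 higher), −1.25 (14 lower, 3 higher) and −0.37 (12 lower, 4 higher). Whether the receptors differ from these markers was not tested. The Ccr2 change was smaller than in lung both in monocytes (−1.96 ± 0.24, adjusted p = 1.33e-05) and in CD4 T cells (−2.41 ± 0.26, adjusted p = 3.4e-07). The changes of Ccr7 and Cxcr4 were larger in CD4 T cells than in lung (1.67 ± 0.20 and 2.06 ± 0.37, adjusted p = 1.21e-06 and 0.00013) and than in monocytes (2.03 ± 0.07 and 1.82 ± 0.07, adjusted p = 1.72e-13 and 3.51e-13). For Ccr7, monocytes and lung were not told apart (−0.30, 95% interval −0.70 to 0.10). The Cxcr3 change was larger in monocytes than in lung (1.63 ± 0.32, adjusted p = 0.000402) and than in CD4 T cells (−1.63 ± 0.19 for CD4 T cells minus monocytes, adjusted p = 1.14e-06). Cxcr6, which rose in all 3 materials, gave no difference past the threshold: its intervals were −0.72 to 1.09, −0.68 to 0.68 and −0.67 to 0.42. These fits used TMM, and the differences were not refitted with scaling on marker lists.

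The other genes of the pathway were read from lists of receptors, ligands and signalling genes. Of all genes tested, 35.5% rose and 35.3% fell in lung, 14.3% and 16.1% in monocytes, and 30.1% and 29.9% in CD4 T cells. Of 14 other chemokine receptors tested in lung 10 rose and 0 fell (median 1.15), among them Cxcr2 of neutrophils at 1.61 ± 0.17 (adjusted p = 7.95e-05). No other receptor had an unadjusted p below 0.05 downward there. In the libraries labelled monocytes 5 of 14 rose and 4 fell (median 0.084). Ackr2, a scavenging receptor of inflammatory chemokines, was at −0.72 ± 0.05 (adjusted p = 2.45e-06). The endothelial list fell in 13 of 14 genes over these libraries (median −0.44). The fibroblast list fell in 7 of 10 and rose in 2 (median −0.75). Their part in the Ackr2 value was not tested. In CD4 T cells 8 of 13 rose and 1 fell (median 0.91). Ccr8, found on regulatory and type 2 T cells, went from 8.31 ± 1.49 to 156 ± 8.10 scaled CPM there (4.22 ± 0.11, adjusted p = 9.42e-11).

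Ligand genes moved unlike their receptors in places. Their counts stand against 35.5% of all genes higher and 35.3% lower in lung. The shares were 14.3% and 16.1% in monocytes, and 30.1% and 29.9% in CD4 T cells. In lung 6 of 11 rose and 4 fell (median 0.44): Cx3cl1, the ligand of Cx3cr1, was at 1.02 ± 0.21 (adjusted p = 0.00165), whereas Ccl7 and Ccl12, ligands of Ccr2, were at −1.28 ± 0.25 and −0.86 ± 0.21 (adjusted p = 0.00103 and 0.00317). In the libraries labelled monocytes 3 of 12 rose and 2 fell (median 0.067). Cxcl12, the ligand of Cxcr4, went from 445 ± 19.5 to 336 ± 12.7 scaled CPM there (−0.41 ± 0.04, adjusted p = 5.19e-05). The endothelial and fibroblast lists fell over the same libraries (medians −0.44 and −0.75), and their part in the Cxcl12 value was not tested. In CD4 T cells 8 of 9 rose and 1 fell. No median is given for them because Ccl20 had no count in any untreated library. Cxcl10, a ligand of Cxcr3, went from 3.75 ± 0.477 to 214 ± 9.19 scaled CPM (5.82 ± 0.09, adjusted p = 3.93e-12), and Cxcl16, the ligand of Cxcr6, from 1.34 ± 0.518 to 22.5 ± 2.87 (4.13 ± 0.21, adjusted p = 2.04e-08). The ligand that fell, Ccl25 of Ccr9, was at −0.94 ± 0.26 (adjusted p = 0.00884), the same direction as Ccr9 there.

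Of 22 genes of receptor signalling and desensitization, 14 rose and 6 fell in lung (median 0.55), against 35.5% and 35.3% of all genes. In monocytes 10 rose and 5 fell (median 0.071), against 14.3% and 16.1%. In CD4 T cells 10 rose and 7 fell (median 0.094), against 30.1% and 29.9%. The lung genes of smallest p were Plcb2 (1.54 ± 0.15), Pik3cg (1.10 ± 0.11), Pik3r5 (1.04 ± 0.12), Dock2 (1.39 ± 0.16), Rac2 (1.16 ± 0.14), Arrb2 (0.65 ± 0.08) and Rgs2 (1.03 ± 0.13), all higher. Dock2 and Rac2, which drive the actin rearrangement of migrating leukocytes, belong to the pan-leukocyte list as well. In the libraries labelled monocytes Pik3cg (0.52 ± 0.05), Dock2 (0.50 ± 0.05), Rac2 (0.62 ± 0.10) and the receptor kinase Grk6 (0.39 ± 0.05) rose. Arrb1 (−0.39 ± 0.04), an arrestin, and Grk5 (−0.32 ± 0.05) fell. The part of the falling endothelial and fibroblast lists in the Arrb1 and Grk5 values was not tested. In CD4 T cells, 3 genes of the RGS family, which end G protein signalling, rose. Rgs2 went from 31.99 ± 1.41 to 564 ± 26.2 scaled CPM (4.14 ± 0.06, adjusted p = 3.93e-12), Rgs1 from 32.1 ± 1.03 to 272 ± 17.3 (3.08 ± 0.06) and Rgs16 from 14.2 ± 1.49 to 77.2 ± 4.43 (2.44 ± 0.09). The G protein subunit Gnb1 was at 0.87 ± 0.05 there.

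For each receptor, the 2 genes of most similar pattern over the 26 libraries were taken by Pearson r of log2(CPM + 1), among 13820 genes. The points share 3 kinds of material and 2 treatments, so r reflects differences between the 6 groups as well as within them. Ccr7 was closest to Stk17b and the pan-leukocyte gene Cd53 (r = 0.997 and 0.995), and Cxcr3 to Card6 and Inpp4b (0.991 and 0.985). Cxcr6 was closest to Tnfsf8 and Tnfrsf18 (0.988 and 0.987), and Cxcr5 and Ccr6 shared Pou2af1, a B cell coactivator (0.99 and 0.969), with Fgd3 (0.991) and Traf1 (0.969) as their other neighbours. Cxcr4 was closest to Btg1 and the early response factor Egr3 (both 0.973), Cx3cr1 to Themis2 and Fgr (0.98 for both), and Ccr2 to Notch2 and Itga2b (0.974 and 0.955). Ccr9 had the weakest neighbours, Hist3h2ba and Rdh12 (0.947 and 0.894).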

How the data were processed

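Per the labels' protocols, polyadenylated RNA was sequenced on an Illumina NovaSeq after NEBNext library preparation. The authors deposited raw, whole-number counts per gene in 2 tables, 1 of lung and monocyte and 1 of CD4 T cell libraries. Per the submitters' processing notes the tools were STAR 2.7.9, featureCounts and Subread 2.0.3 with build GRCm39. The sources used here do not give the strand setting. All 26 columns matched a sample, and 52083 genes (94.0%) had a symbol.

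Groups came from the titles. Each comparison was fitted on the whole table with edgeR 4.0.16 in R 4.3.3: default filterByExpr (minimum count 10), TMM scaling, the quasi-likelihood test and Benjamini-Hochberg adjustment over all genes tested, with a threshold of 0.05. Only the groups compared entered a fit (5 against 5 or 4 against 4, 4 groups for differences of changes). Errors of log2 changes are standard errors (SE). Plain CPM divides by the library total, and scaled CPM also by the TMM factor. Alternatives were DESeq2 1.42.0 (size factors, Wald test), other filters, scalings on marker lists, marker covariates, a replicate block and each library left out. Library totals alone, the immature thymocyte covariate and summed close libraries were added once the data had been seen. The scripts were tested on simulated counts.

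The receptors and lists were chosen with earlier results of these data known. The text names the 9 receptors, per propranolol comparison the 8 called pathway genes of smallest p, and 2 pattern neighbours per receptor, leaving out predicted loci and antigen receptor segments. Results that need a withheld item are not reported here. The ligands Cx3cl1, Ccl7, Ccl12 and Ccl25, and the markers Cd4, Cd3e, Cd8a, Csf1r, Nr4a1, Igha, Tyrp1, Dct, Tyr, Rag1 and Dntt, were named after their values were seen. Of 44 pairs of replicate libraries compared by chi-square, 0 agreed within sampling noise.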

Additional observations from a re-analysis of the deposited data

Results flagged for a closer look

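Among 54 groups checked for a library far from the others, 2 stood out, where chance gives about 1 in 20. Cxcr5 in treated lung library 4 was at 12.15 CPM, above the other 4 treated lungs by most of the group's range. Cxcr6 in treated CD4 T cell library 1 was at 100.7 CPM, below the other 3 in the same way.

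In 15 of 27 tests, the change of a receptor differed between kinds of material, 5 of 9 for each pair. Of all genes 57.4%, 56.2% and 47.7% passed the same tests for monocytes minus lung, CD4 T cells minus lung and CD4 T cells minus monocytes, so the receptors' share is near the background. For monocytes minus lung the differences of log2 changes were −1.96 for Ccr2, −1.19 for Ccr6, 1.63 for Cxcr3, −0.67 for Cxcr5 and −0.93 for Cx3cr1. The 18 pan-leukocyte markers had a median of −0.75 in the same fit. The adjusted p values of Ccr6, Cxcr5 and Cx3cr1 were 0.0161, 0.0145 and 0.018, and these calls rested on single libraries. Ccr6 lost its call without untreated lung 1 (−0.92) or 4 (−0.93), treated lung 4 (−0.85) or treated monocyte library 3 (−0.98). Cxcr5 lost it without untreated lung 1 (−0.47) or 4 (−0.51), treated lung 4 (−0.38), untreated monocyte library 2 (−0.52) or treated monocyte library 1 (−0.52) or 3 (−0.51). Cx3cr1 lost it without untreated lung 1 (−0.66), 4 (−0.77) or 5 (−0.78), treated lung 1 (−0.76) or 4 (−0.76), untreated monocyte library 1 (−0.62) or 2 (−0.73) or treated monocyte library 1 (−0.69). The adjusted p values in these fits ran from 0.0528 to 0.108.

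For CD4 T cells minus lung the differences were −2.41 for Ccr2, −1.06 for Ccr6, 1.67 for Ccr7, 2.06 for Cxcr4 and −0.70 for Cxcr5. Adjusted p was 0.0184 for Ccr6 and 0.00653 for Cxcr5. The 18 pan-leukocyte markers had a median of −1.25 in this fit. Ccr9, not called, was at −1.36 (adjusted p = 0.0302) without untreated lung 3.

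For CD4 T cells minus monocytes the differences were −0.38 for Ccr2, 2.03 for Ccr7, −1.63 for Cxcr3, 1.82 for Cxcr4 and 0.79 for Cx3cr1 (adjusted p = 0.00416). The Ccr2 difference (adjusted p = 0.0407) was not past the threshold without untreated monocyte library 2 (−0.39), 3 (−0.35) or 4 (−0.31), treated monocyte library 3 (−0.33) or 4 (−0.32), untreated CD4 T cell library 2 (−0.39), 3 (−0.33) or 4 (−0.34), or treated CD4 T cell library 2 (−0.30), nor with DESeq2 (−0.33, adjusted p = 0.0622).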

How the results depend on the processing

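Of 1427 receptor values recomputed under the alternatives, 1324 kept direction and side of the threshold, 43 lost and 25 gained a call, and 35 changed sign. 13 could not be tested, most of them because the 5 CPM filter removed the gene. In lung, Ccr9 turned to −0.40 (pan-leukocyte scaling), −0.34 (resident scaling) and −0.37 (melanocyte covariate), Cxcr3 to 0.42 (melanocyte covariate), and Cxcr4 to 0.10 (5 CPM filter), 0.11 (replicate block), 0.14 (library totals), and to 0.36 and 0.03 without untreated library 2 or treated library 5 (range −0.22 to 0.36 with 1 library left out). The melanocyte covariate left 2754 of 13189 calls and 3 receptors. That fit cannot tell melanocyte level and treatment apart, and the cause was not tested. In monocytes Ccr2 turned to −0.18 (pan-leukocyte scaling) and Ccr9 to −0.69 (T cell covariate). Calls over all genes were 5553 as reported, 3544 with the replicate block, 11228 with pan-leukocyte scaling and 1377 with close libraries summed (fewer samples), and 3 receptors were called with the 5 CPM filter (6 tested). Untreated CD4 T cells against lung gave 10631 genes with that filter (fewer genes tested). For monocytes minus lung, 3 receptors were called without a filter and 3 with 5 CPM, and 2 to 5 with 1 library left out. There Ccr9 turned to −0.030 with the replicate block, and with 1 library left out Ccr9 ran from −0.075 to 0.624, Cxcr4 from −0.111 to 0.606 and Cxcr6 from −0.024 to 0.507. For CD4 T cells minus lung, 3 receptors were called without a filter. Cxcr3 turned to 0.14 and Cx3cr1 to 0.036 without it, Cxcr6 to −0.052 (5 CPM) and −0.008 (replicate block), and with 1 library left out Cxcr6 ran from −0.217 to 0.171 and Cxcr3 from −0.203 to 0.044. Without the filter Ccr6 (−0.82) and Cxcr5 (−0.46) lost their calls. For CD4 T cells minus monocytes, Cxcr5 turned to −0.035 (5 CPM), and with 1 library left out Cxcr5 ran from −0.046 to 0.135 and Cxcr6 from −0.259 to 0.106. In each of these fits that changed a sign or a count, the cause was not tested unless named. Where a count of receptors called stands without the count of all genes in that fit, it says little about the receptors by itself. Same-numbered libraries did not deviate together throughout (r from −0.10 to 0.53 in lung, −0.48 to −0.26 in monocytes, −0.03 to 0.04 in CD4 T cells), so the numbers were not taken as pairs. Besides the values above, the block took the call only from Ccr2 for CD4 T cells minus monocytes (−0.38, adjusted p = 0.0779). Low counts of Ccr6, Cxcr3 and Cxcr6 outside CD4 T cells limit precision there.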
